A study of Mus musculus with 11 samples.

Results

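The 9 Toll-like receptor genes of the mouse Inflammation panel, Tlr1 to Tlr9 (TLR1, TLR2, TLR3, TLR4, TLR5, TLR6, TLR7, TLR8 and TLR9 in the deposited tables), were taken by name from the 248 genes measured in corneas of female C57BL/6 mice. All 9 were present. Every mouse was under desiccating stress for 5 days, a dry eye model in which scopolamine in the drinking water blocks tear secretion and the cage air is dry and drafty, so no unstressed cornea was compared. The eyes received drops of vehicle (3 samples), of pan at 10 µM (4 samples) or of C1 at 10 µM (4 samples). Both compounds are small molecules made to mimic neurotrophin loops, C1 as a partial agonist of the neurotrophin receptor TrkC and pan as an agonist of TrkA, TrkB and TrkC. The age labels did not settle the age of the mice: one gave 3 months for all samples, the study's methods describe young mice, and by a second label pan replicate 4 and every C1 sample came from mice of 22 to 24 months and the remaining samples from mice of 2 to 3 months. The labels name corneal epithelium as the cells, and the panel held no keratin or other gene that defines it, so that label was not tested.

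Toll-like receptors are membrane proteins that bind molecules of microbes and of damaged cells and start inflammatory signalling, for the most part through the adaptor MyD88 and the transcription factor NF-kB. TLR1, TLR2, TLR4, TLR5 and TLR6 work at the cell surface, where TLR2 pairs with TLR1 or TLR6 to bind lipoproteins, TLR4 binds lipopolysaccharide with its partner MD-2, and TLR5 binds flagellin. TLR3, TLR7, TLR8 and TLR9 bind nucleic acids inside endosomes, and TLR3 signals through the adaptor TRIF toward type I interferon. The corneal epithelium is a barrier tissue that expresses several of these receptors.

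The counts of the NanoString assay, in which a coloured barcode is counted for each mRNA molecule bound by a gene's probe, differed widely in depth. Vehicle samples had totals of 91955 to 133098 counts over the 248 genes. Pan replicates 1 to 3 had 64156 to 101351, pan replicate 4 had 646446, and the C1 totals were 165828 to 525997. All C1 samples and pan replicate 4, which share the older of the second age labels, were thus deeper than every vehicle sample. The values below are normalized counts, that is, counts divided by the level of housekeeping genes in the same sample. Probes differ in how well they bind, so levels were compared between samples for each gene and not between genes.

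Tlr1, Tlr2, Tlr3, Tlr4 and Tlr5 were above background in all 11 samples, as were 132 of the 248 genes of the panel (53.2%). Background was set in each sample as the mean plus 2 SD of 16 genes of liver, kidney, muscle, rod cells, Paneth cells and lymphocytes, and it lay between 11.0 and 31.1 normalized counts. Tlr7 was above it only in vehicle replicates 2 and 3, Tlr6 only in pan replicate 3, Tlr8 only in pan replicate 2, and Tlr9 in pan replicates 2, 3 and 4 and C1 replicate 3. With a limit of 20 recovered counts in place of this background, 3 genes (Tlr3, Tlr4 and Tlr5) passed in all samples, since Tlr1 and Tlr2 fell to 16 and 10 counts in their lowest pan samples.

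**Figure D1:**
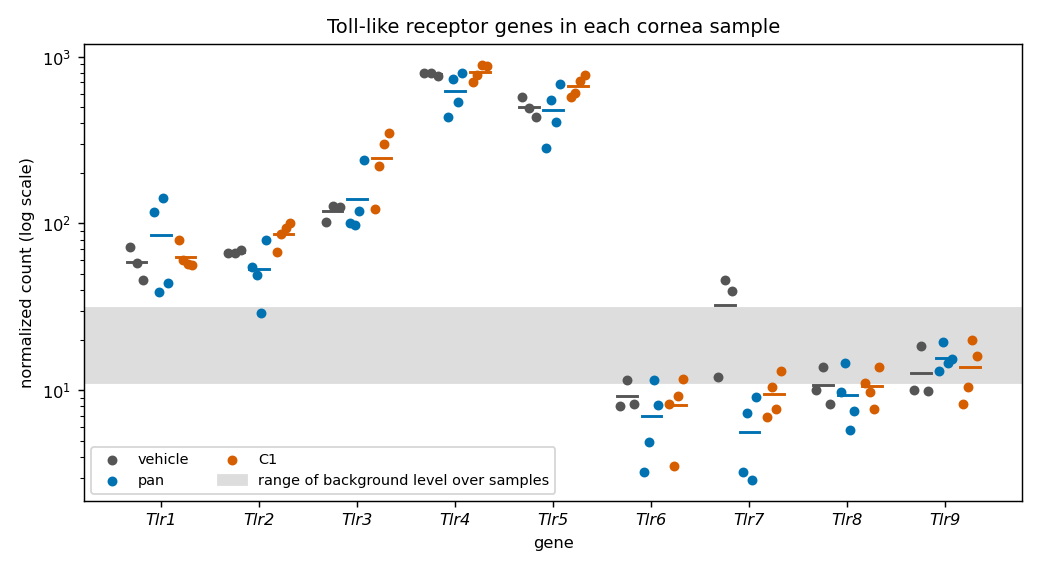
Normalized counts (log scale) of the 9 genes, with 1 point per cornea sample, a bar at the mean of each group, and a grey band that spans the background levels of the samples (11.0 to 31.1). Tlr1 to Tlr5 lie above the band except Tlr2 in pan replicate 3 (29.0, against 11.0 in that sample), the points of Tlr6, Tlr8 and Tlr9 lie within or under it, and Tlr7 rises above it in 2 vehicle samples.

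No Toll-like receptor gene passed an adjusted p of 0.05 in any of the 3 comparisons by limma, in which p-values were adjusted over all 248 genes. With pan against vehicle, 0 of 9 members were called, against 2.02% of all genes. At an unadjusted p under 0.05 the same comparison held 1 member (Tlr7), against 12.5% of all genes. With C1 against vehicle, 0 of 9 members were called (0% of all genes), and 3 members (Tlr3, Tlr5 and Tlr7) had an unadjusted p under 0.05, against 10.5% of all genes. With C1 against pan, 0 of 9 were called (0.403% of all genes), and 1 member (Tlr2) had an unadjusted p under 0.05, against 15.3%. The median log2 difference of the 9 members was -0.23 for pan against vehicle (-0.20 for all genes), 0.08 for C1 against vehicle (-0.02) and 0.42 for C1 against pan (0.23). The comparisons of pan and of C1 with vehicle share the vehicle samples. The study calls the samples biological replicates and kept only those that passed quality control. Nothing in the labels says that the samples are different animals or pools, so the p-values measure the spread between these samples. In RNA of a tissue sample, fewer cells of a type and less RNA per cell cannot be told apart.

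**Figure D2:**
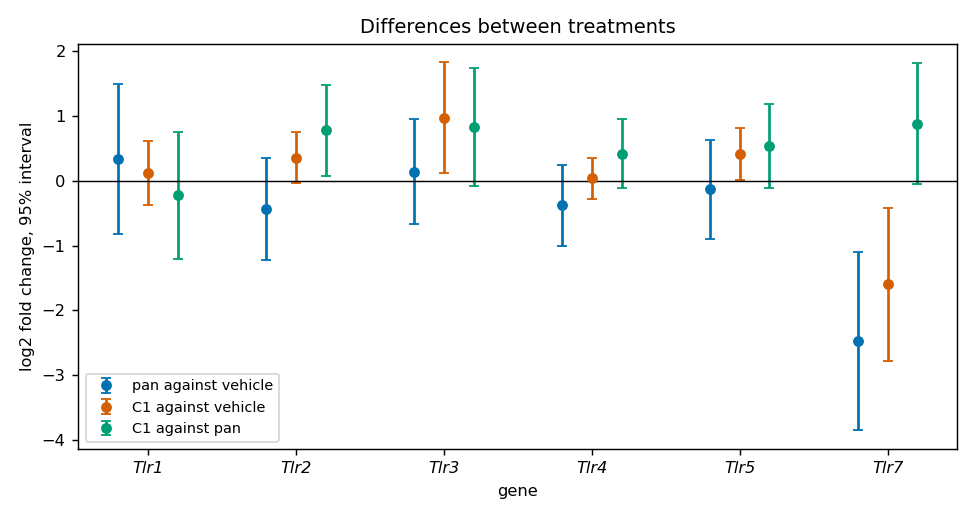
Differences between groups on the log2 scale for the 5 genes above background and Tlr7, with 95% intervals from limma. For Tlr7 both differences from vehicle lie under 0 with their intervals (-3.86 to -1.11 for pan), while among Tlr1 to Tlr5 the interval excludes 0 only for Tlr3 and Tlr5 in C1 against vehicle and for Tlr2 in C1 against pan.

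Tlr3, the receptor of double-stranded RNA, had the widest spread of the 5 genes above background. Its normalized counts were 102, 127 and 125 with vehicle, 101, 97.6, 119 and 240 with pan, and 122, 220, 299 and 351 with C1. C1 replicate 1 lay within the vehicle range and the other C1 samples above it, while pan replicate 4 alone of the pan samples stood above vehicle. The mean was 118 ± 13.8 (SD, n = 3) with vehicle and 139 ± 67.9 (SD, n = 4) in pan samples, and in C1 samples it was 248 ± 99.5 (SD, n = 4). The log2 difference of C1 from vehicle was 0.97 ± 0.36 (SE), a 1.96-fold higher level with a 95% interval of 0.12 to 1.83 on the log2 scale and an adjusted p of 0.436 by limma. The exact permutation test gave a two-sided p of 0.171, and 4 samples against 3 cannot give a p under 0.0571. Pan differed from vehicle by a log2 value of 0.14 ± 0.35 (SE), and by -0.16 without pan replicate 4. C1 differed from pan by 0.83 ± 0.40 (SE), with an interval of -0.08 to 1.75. The study reports Tlr3 as significantly higher with C1 than with vehicle by its own analysis of these samples, which was not repeated here.

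The Tlr3 values were set beside the depth of the samples. Within C1 they followed the order of the total counts, from 122 at 165828 counts to 351 at 525997, while within vehicle and within pan they did not. The 4 samples with the highest Tlr3 level were the 4 deepest of the series, C1 replicates 2, 3 and 4 and pan replicate 4. In one fit of the 3 groups with log2 total count as a term, Tlr3 had a slope of 0.47 ± 0.10 (SE) on the log2 scale for each doubling of the total, the p of rank 3 among the 248 genes. The slope, which was added after these values were seen, did not pass the threshold (adjusted p = 0.0906 by limma). The difference of C1 from vehicle was 0.26 ± 0.27 (SE) in that fit. With the second age label as a term in place of the total it was -0.22 ± 0.60 (SE), where pan replicate 4 alone separates age from treatment. In the C1 samples depth, the older age label and the compound cannot be told apart.

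The surface receptors above background were described in the same way. At an unadjusted p under 0.05, 5 of 9 members had a slope with the total count, against 16.5% of all genes. None of the 248 genes passed an adjusted p of 0.05 for the slope (0%). The slopes were 0.29 for Tlr2, 0.20 for Tlr4, 0.28 for Tlr5 and -0.38 for Tlr1 on the log2 scale per doubling of the total, with adjusted p-values from 0.208 to 0.291 by limma. The median slope of all genes was 0.07. The values had already been scaled to housekeeping genes in each sample, and the part of depth in these levels was not tested in independent samples.

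**Figure D3:**
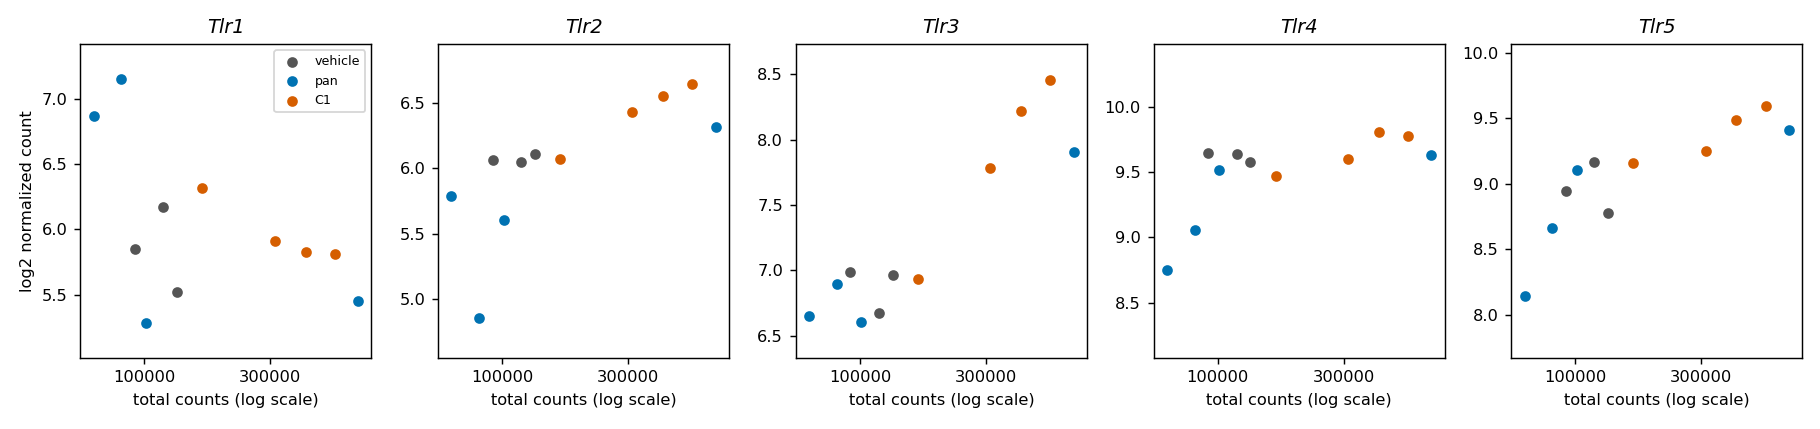
The log2 normalized count of Tlr1 to Tlr5 in each sample against the total count of the sample (log scale), with the same span of 2.4 log2 units on each vertical axis and colours for the groups. Tlr2, Tlr3 and Tlr5 are highest in the 4 deepest samples (C1 replicates 2, 3 and 4 and pan replicate 4), the lowest Tlr4 values lie in the shallowest samples, and Tlr1 is highest there.

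Tlr2, the shared partner of TLR1 and TLR6 in lipoprotein binding, was steady with vehicle at 66.1, 66.8 and 69.1 normalized counts. With pan it was 55.2, 48.8, 29.0 and 79.6, and with C1 67.4, 86.2, 93.9 and 100.2. In pan, 3 samples lay under the vehicle range and replicate 4 above it, and in C1, 3 samples lay above the vehicle range and replicate 1 inside it. C1 exceeded pan by a log2 value of 0.78 ± 0.31 (SE), or 1.72-fold, with an adjusted p of 0.277 by limma and a two-sided exact permutation p of 0.0571. The groups overlapped, since pan replicate 4 was higher than C1 replicate 1. With the total count in the fit the difference of the compounds was 0.42, and with the second age label it was 0.11. The log2 difference from vehicle was -0.43 ± 0.34 (SE) with pan and 0.35 ± 0.17 (SE) with C1, and neither passed the test. The value for C1 turned to -0.09 with the total count in the fit.

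Tlr5, the flagellin receptor, gave 575, 493 and 437 normalized counts with vehicle, 282, 551, 406 and 682 with pan, and 572, 608, 718 and 775 with C1. The pan samples spread on both sides of the vehicle range, and C1 replicate 1 lay just inside it. The mean was 502 ± 69.0 (SD, n = 3) with vehicle and 668 ± 94.2 (SD, n = 4) with C1, a log2 difference of 0.41 ± 0.17 (SE) with an adjusted p of 0.452 by limma. With the total count in the fit this difference was -0.02. Pan differed from vehicle by -0.13 ± 0.33 (SE), and C1 from pan by 0.54 ± 0.29 (SE) with an interval of -0.11 to 1.19.

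Tlr4, the lipopolysaccharide receptor, had vehicle values of 795, 800 and 765. With pan it was 432, 732, 533 and 793, so that 3 of 4 pan samples lay under all vehicle samples. With C1 it was 707, 776, 894 and 876, around the vehicle values. The log2 difference from vehicle was -0.38 ± 0.27 (SE) with pan, with an upper 95% limit of 0.25, and 0.04 ± 0.13 (SE) with C1, with an interval of -0.28 to 0.36. C1 and pan differed by 0.42 ± 0.24 (SE), with an interval of -0.11 to 0.96. None of the 3 differences passed the test.

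Tlr1, the partner of TLR2 for triacylated lipoproteins, split the pan samples. Its normalized counts were 72.1, 57.6 and 46.0 with vehicle, 117, 39.0, 142 and 43.7 with pan, and 79.8, 60.3, 56.8 and 56.2 with C1. Pan replicates 1 and 3 lay above every vehicle and C1 sample and pan replicates 2 and 4 under all of them, so the pan mean of 85.4 ± 51.9 (SD, n = 4) describes no single sample. The 2 high samples were the shallowest of the series, at 64156 and 81855 counts. The log2 difference from vehicle was 0.34 ± 0.50 (SE) with pan and 0.12 ± 0.21 (SE) with C1, with intervals of -0.82 to 1.50 and -0.38 to 0.61. C1 and pan differed by -0.22 ± 0.43 (SE), and the sign turned without pan replicate 1 (0.01) or pan replicate 3 (0.10).

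Among the receptors of nucleic acids in endosomes other than TLR3, Tlr7 showed the lowest p of the family. TLR7 binds single-stranded RNA and is known from plasmacytoid dendritic cells, B cells and macrophages. Its normalized counts were 12.0, 46.1 and 39.5 with vehicle, 3.2, 7.3, 2.9 and 9.1 with pan, and 6.9, 10.5, 7.7 and 13.0 with C1. All 4 pan samples lay under all vehicle samples, whereas C1 replicate 4 lay above vehicle replicate 1. Among the members 1 of 9 had pan values entirely below vehicle, against 8.47% of all genes, and 0 of 9 had them entirely above, against 2.42%. For C1 and vehicle, 0 of 9 members were separated in either direction, against 6.05% of all genes above and 4.03% below. For C1 and pan, 0 of 9 were separated, against 7.66% above and 0.403% below.

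The log2 difference of Tlr7 from vehicle was -2.48 ± 0.60 (SE) with pan, with an interval of -3.86 to -1.11, an adjusted p of 0.0912 by limma and a two-sided exact permutation p of 0.0571, the smallest that 4 against 3 samples can give. With C1 it was -1.60 ± 0.50 (SE), with an adjusted p of 0.370. The size depended on how low values were treated: with background subtracted the differences were -3.64 for pan and -3.36 for C1, and with a pseudocount of 10 they were -1.35 and -1.02. All pan and C1 values were under the background of their sample. Pan and C1 differed by 0.88 ± 0.41 (SE) with C1 higher, an adjusted p of 0.353 and an interval of -0.05 to 1.82. The call for pan depended on the fit: Tlr7 passed the threshold in 8 of 16 alternatives, with adjusted p-values from 0.0194 to 0.287. It passed, for example, with all 3 groups in one fit (0.0405) and without vehicle replicate 1 (-3.09 on the log2 scale, adjusted p = 0.0194), and it did not without vehicle replicate 2 (-2.12, adjusted p = 0.287).

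These Tlr7 values rest on few molecules. The recovered counts were 6, 20 and 24 with vehicle, 1, 3, 1 and 29 with pan, and 5, 15, 15 and 30 with C1. A lowest value of 1 count may stand for a count of 0 that was raised to 1 before the log. Over the group, pan replicates 1 to 3 held 5 counts against 50 with vehicle. Scaled to housekeeping genes, this was a ratio of 0.145 with an exact 95% interval of 0.0451 to 0.361. With pan replicate 4 the ratio was 0.247 (0.155 to 0.390), and with all C1 samples it was 0.313 (0.213 to 0.462). These intervals cover counting error only and leave out the spread between samples, which was 12.0 to 46.1 normalized counts within vehicle alone.

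The sums of other low signals and of macrophage markers are given beside Tlr7. The 16 background genes summed to 130 to 210 normalized counts with vehicle, 75.3 to 127 with pan and 113 to 174 with C1, so that the pan samples lay under all vehicle samples there as well and the C1 samples overlapped them. Of these 16 genes, Mbl2, a lectin of the liver, was called lower with pan (-1.59 ± 0.28, SE, adjusted p = 0.0305 by limma). The 9 macrophage markers summed to 256 to 393 with vehicle, 181 to 252 with pan and 284 to 399 with C1, and 5 to 8 of the 9 were above background in each vehicle and pan sample. With pan 8 of 9 macrophage markers had a lower mean than vehicle (median -0.49), as did 12 of the 16 background genes (median -0.61). The median of all genes was -0.20. None of the markers was called, and the smallest p was that of C3ar1, the receptor of complement C3a (-1.18 ± 0.29, SE, adjusted p = 0.0955 by limma). With C1 the 9 markers had a median log2 difference of 0.27 from vehicle (-0.02 for all genes), 7 of 9 higher. The 2 lower ones were C3ar1, again at the smallest p (-0.95 ± 0.32, SE, adjusted p = 0.418 by limma), and Ccr2 (-0.24 ± 0.37, SE). Against pan all 9 markers had a higher mean with C1 (median 0.66), as did 14 of the 16 background genes (median 0.56). The median of all genes was 0.23. Among the markers C1qa had the smallest p (0.77 ± 0.22, SE, adjusted p = 0.256 by limma). Trem2 and the T cell marker Cd4 were under background in all samples, and Cd40lg, the other T cell marker, was above it in 1 pan sample. At these low levels pan against vehicle gave -1.68 ± 0.39 (SE, adjusted p = 0.0912 by limma) for Cd4 and 1.14 ± 0.37 (SE, adjusted p = 0.239 by limma) for Cd40lg. In C1 against pan the values were 1.44 ± 0.33 (SE) for Cd4 and -0.21 ± 0.22 (SE) for Cd40lg. The part of these signals in the Tlr7 values was not tested.

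**Figure D4:**
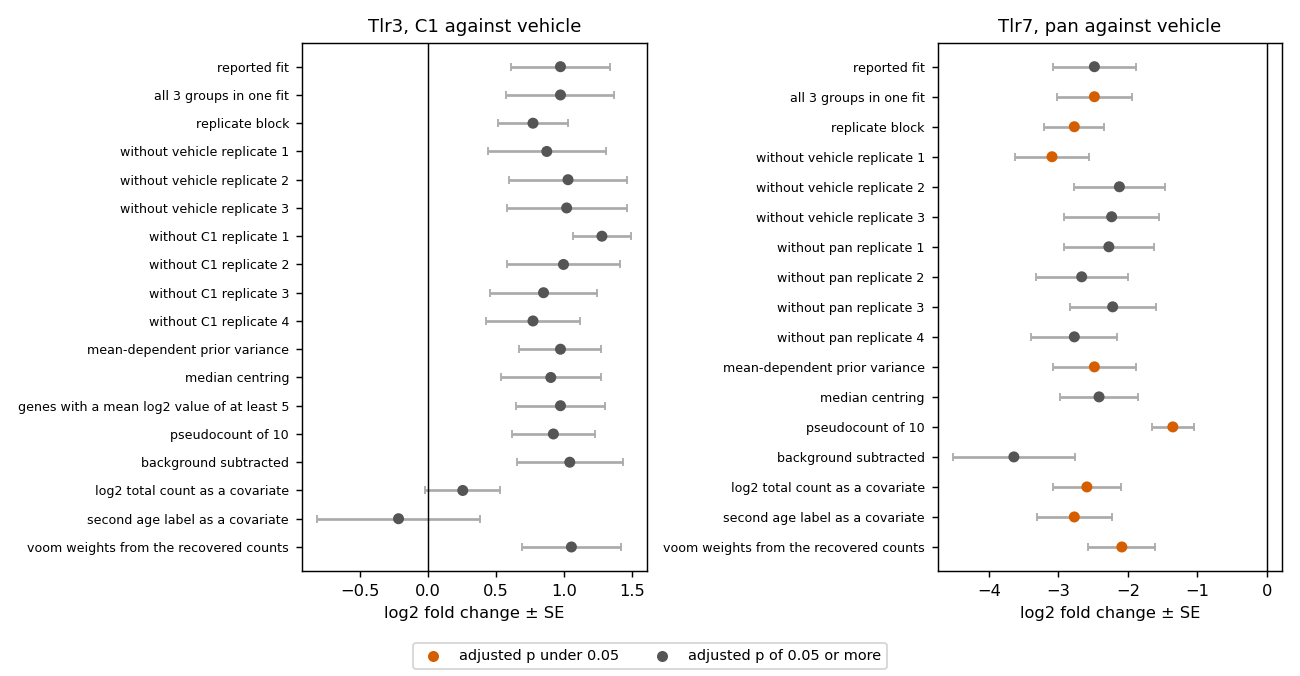
The log2 fold change ± SE of Tlr3 for C1 against vehicle and of Tlr7 for pan against vehicle under the reported fit and each alternative, with orange points where the adjusted p was under 0.05. Tlr3 is not called in any fit and moves from 0.97 to 0.26 and -0.22 with total count or the second age label in the fit, and Tlr7 stays under 0 in all fits and is called in 8 of 16 alternatives.

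Tlr6, Tlr8 and Tlr9 gave no difference to describe. TLR6 pairs with TLR2 for diacylated lipoproteins, TLR8 is a relative of TLR7, and TLR9 binds unmethylated CpG DNA. The values ran from 3.2 to 11.7 normalized counts for Tlr6, from 5.8 to 14.6 for Tlr8 and from 8.3 to 20.1 for Tlr9 over the 11 samples. The groups overlapped for all 3 genes, and the lowest unadjusted p of their 9 tests was 0.246. The recovered counts with vehicle were 4 to 5 for Tlr6, 5 to 6 for Tlr8 and 5 to 8 for Tlr9, and no fold is given for genes at or near background in most samples.

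Ly96, Myd88 and Tollip, whose products carry or restrain the signal of these receptors, had means from 324 to 2950 normalized counts over the groups. Ly96, which encodes the TLR4 partner MD-2, had a log2 difference from vehicle of -0.14 ± 0.21 (SE) with pan and -0.01 ± 0.16 (SE) with C1. Myd88, the adaptor of all Toll-like receptors but TLR3, gave -0.39 ± 0.33 (SE) with pan and -0.04 ± 0.21 (SE) with C1. Tollip, an inhibitor of this signalling, gave 0.00 ± 0.22 (SE) with pan and -0.11 ± 0.14 (SE) with C1. Of 6 kinases downstream (Ripk1, Map3k7, Map2k4, Map2k6, Mapk8 and Mapk14) none was called in any comparison. The smallest p was that of Map2k6 with pan (-0.53 ± 0.36, SE), Mapk8 with C1 (0.21 ± 0.12, SE) and Map2k6 in C1 against pan (0.58 ± 0.34, SE), and the medians of the 6 were -0.05, 0.05 and 0.11. Of 7 transcription factors (Irf3, Irf5, Irf7, Nfkb1, Rela, Jun and Fos) none was called either, with medians of -0.07, -0.02 and 0.17. Irf3, which drives interferon genes downstream of TLR3 and TLR4, gave -0.55 ± 0.26 (SE) with pan and 0.48 ± 0.24 (SE) in C1 against pan. The smallest p among them was that of Jun, a subunit of AP-1, in C1 against vehicle, 0.60 ± 0.19 (SE) on the log2 scale with an adjusted p of 0.370 by limma.

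Among 16 NF-kB dependent products of Toll-like receptor signalling, 2 were called higher with pan and none lower, against 2.02% of all genes called in that comparison. Cxcl1, a neutrophil chemokine, rose by 1.86 ± 0.29 (SE) on the log2 scale (adjusted p = 0.0181), from 9.2 to 16.4 normalized counts with vehicle, where 1 of 3 samples was above background, to 37.7 to 56.3 with pan. Tnfaip3, an inhibitor of NF-kB, rose by 1.86 ± 0.25 (SE) (adjusted p = 0.00846), both by limma. Lower means with pan were found for 9 of the 16, of which Nos2 and Ccl3 had unadjusted p-values of 0.0217 and 0.0257 by limma and neither was called. The median of the 16 was -0.18, beside -0.20 for all genes. With C1 none of the 16 was called and their median was 0.40, beside -0.02 for all genes. Il1a had the smallest p there (0.57 ± 0.21, SE), and Cxcl2 did in C1 against pan (-1.05 ± 0.34, SE), where the median was 0.11 and none was called. The Cxcl2 means were 10.0 normalized counts with C1 and 19.5 with pan, near the background of 11.0 to 31.1. Il6, Il12a, Il12b, Il23a, Cxcl3, Ccl3 and Ccl4 had means under 15 normalized counts in all groups, so the medians of the 16 include genes at or near background. Of 15 interferon products none was called in any comparison, with medians of -0.09 for pan, -0.05 for C1 and 0.11 for C1 against pan. The smallest p with pan was that of the chemokine gene Ccl5 (-1.20 ± 0.46, SE), also near background with means of 8.6 with pan and 20.6 with vehicle. Oasl1, which had the smallest p among them with C1, gave 0.59 ± 0.15 (SE) against vehicle (adjusted p = 0.211 by limma) and 0.71 ± 0.20 (SE) against pan (adjusted p = 0.256 by limma). The study reports this gene too, printed as Osal1, as higher with C1 by its own analysis. Hmgb1, the gene of an alarmin that TLR2 and TLR4 bind, gave 0.06 ± 0.23 (SE) with pan and -0.04 ± 0.14 (SE) with C1.

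The genes with the most similar profile over the 11 samples were found by the root mean square difference of log2 values after each gene's own mean was removed. For Tlr4 the nearest of 130 genes were Shc1, Mapk3 and Hdac4, at 0.08, 0.09 and 0.10 log2 units. For Tlr5 they were Shc1, Gnas and Tlr4 (0.17, 0.18 and 0.19). Tlr2 lay nearest to Irf3, C1s and C1qa (0.25, 0.27 and 0.29), and Tlr1 to Ifit2, Cd55 and C3 (0.30, 0.31 and 0.33). Tlr3 had no near neighbour: its closest genes were Tlr5, Tlr2 and C1qa at 0.45, 0.45 and 0.49, beside a median of 0.68 over the genes compared. The samples share depth and treatment in these profiles.

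The promoter of Tlr3 is shown because Tlr3 had the widest spread of the expressed members and because it alone among the members matched held the NF-kB motif searched. RefSeq promoters were found for 7 of the 9 genes (not for Tlr4 and Tlr7), and the 250 bases before each start were searched on both strands. The NF-kB motif GGGANTTTCC was found in Tlr3, as it was in 0.356% of 32851 mouse promoters of this length. The interferon response motif GAAANNGAAA was found in 1 of 2 promoters of Tlr6 and in 2.98% of all promoters. The Tlr3 promoter lies at chr8:45410381-45410630 on the minus strand of GRCm38.p6. It is printed from 5′ to 3′ and ends at the base before the start, with the NF-kB motif, which begins 211 bases before the start, in capitals. A match is a description of the letters and not a site of binding.
Tlr3: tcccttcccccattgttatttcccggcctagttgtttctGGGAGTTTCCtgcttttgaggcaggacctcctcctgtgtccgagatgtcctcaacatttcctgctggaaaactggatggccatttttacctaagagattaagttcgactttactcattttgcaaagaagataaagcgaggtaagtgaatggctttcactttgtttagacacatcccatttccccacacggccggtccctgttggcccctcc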

How the data were processed

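NanoString counts of 3 vehicle, 4 pan and 4 C1 cornea samples were used. The authors scaled each sample to its housekeeping probes (geometric mean, ROSALIND software) and deposited log2 normalized counts of 248 genes in 2 tables, one per compound, with the same 744 vehicle values in each. The tables also hold the authors' mean levels, fold changes, p-values and adjusted p-values, which were not used. Housekeeping and negative control probes were not analysed here, so 16 genes of other tissues set the background. Within each sample 100% of the unlogged values were whole multiples (tolerance 0.01) of a single step, here read as 1 count, which gave totals of 64156 to 646446. Genes keep the symbols of the tables, and 247 gene IDs (9 of 9 Toll-like receptors) were found in RefSeq.

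Each comparison was fitted by limma 3.58.1 (lmFit, eBayes) to the deposited log2 values of the 2 groups compared (R 4.3.3), with no filter or covariate. A gene was called at a Benjamini-Hochberg adjusted p under 0.05 over 248 genes. Two-sided exact permutation tests used Python 3.11.15 and scipy 1.17.1, with numpy 2.4.6, pandas 2.3.3 and matplotlib 3.10.9. Fold changes are 2 to the power of the difference of log2 means. The fit was also run on simulated counts. These had the same spread setting for all genes and no effect of depth or age on levels, so they do not measure its performance on these samples.

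All 9 members, Ly96, Myd88 and Tollip were to be named, and of each other list the called genes or the gene with the smallest p in a comparison, and the 3 genes nearest in profile. Genes and lists were chosen with earlier results of these data known. The slope with total count, the motif search and the count ratio of Tlr7 were added after the values were seen. Trem2, Ccr2, Cd4, Il6, Il12a, Il12b, Il23a, Cxcl3, Ccl4, Nos2 and Ccl3 were named then. Alternatives were 3 groups in one fit, a replicate block, leaving out each sample, a mean-dependent prior, median centring, a filter at a mean log2 value of 5, a pseudocount of 10, background subtraction with a floor of 1, log2 total count or the second age label as a covariate, and voom weights.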

Additional observations from a re-analysis of the deposited data

How the results depend on the processing

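No member was called for C1 against vehicle or C1 against pan under any alternative run. For pan against vehicle the count of called members was 1 (Tlr7) in place of 0 with all 3 groups in one fit, a replicate block, a mean-dependent prior variance, a pseudocount of 10, the total count or the second age label as a covariate, and voom weights, and it ranged from 0 to 1 over the fits that leave out one sample (1 without vehicle replicate 1). The replicate numbers were not shown to pair the samples: deviations of same-numbered samples correlated from 0.06 to 0.31 (pan and vehicle), -0.05 to 0.04 (C1 and vehicle) and -0.05 to 0.57 (C1 and pan). With the replicate block Tlr7 differed by -2.77 (adjusted p = 0.0410), Tlr3 in C1 against vehicle by 0.77, and Tlr3 in pan against vehicle by -0.16 in place of 0.14.

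Signs turned for differences that had not passed the threshold. With the second age label, Tlr3 gave -0.16 for pan against vehicle, for C1 against vehicle Tlr2, Tlr3, Tlr4 and Tlr5 gave -0.54, -0.22, -0.48 and -0.36, and for C1 against pan Tlr1, Tlr3 and Tlr5 gave 0.52, -0.0586 and -0.0395. With the total count, Tlr2, Tlr4 and Tlr5 gave -0.0859, -0.26 and -0.0188 for C1 against vehicle and Tlr1 gave 0.25 for C1 against pan. Median centring gave -0.0287 for Tlr4 in C1 against vehicle. Without one sample, the ranges that crossed 0 were -0.16 to 0.28 (Tlr3) and -0.32 to 0.10 (Tlr5) for pan against vehicle, -0.0423 to 0.28 (Tlr1) and -0.00523 to 0.11 (Tlr4) for C1 against vehicle, and -0.52 to 0.10 (Tlr1) for C1 against pan. The causes were not tested. Median centring moved the median of all genes for C1 against pan from 0.23 to 0.10. With a limit of 20 recovered counts, 3 members in place of 5 were above background in all samples. Tlr7 was not tested under the filter at a mean log2 value of 5. Folds of Tlr6, Tlr8 and Tlr9 are not reported, so their alternatives are left out. Low counts limit Tlr6 to Tlr9.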
